A study of Mus musculus with 2 samples.

Results

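The hypoxia response genes followed here were Hif1a, Egln1, Egln3, Vegfa, Adm, Bnip3, Ero1l, P4ha1, Ndrg1 and Ankrd37, chosen by exact gene name as 10 of the 35522 features listed in both expression tables. All 10 were found in both tables. The samples were neutrophils from the bone marrow of Balb/C mice between 5 and 8 weeks of age, sorted as CD11b-positive, Ly-6G-high and Ly-6C-low-to-negative cells. Both cultures contained GM-CSF, a myeloid growth factor, at 10 ng/ml. The PBS group received PBS, and the exosome group received 20 ug/ml of exosomes, each for 3 days. The exosomes came from spheres of CT26, a mouse colon carcinoma line, grown in a serum-free stem cell medium that enriches cancer stem cells (sphere-derived cancer stem cells, SDCSCs). Each group was 1 library (n = 1), so no value below has a spread between replicates, no test between the treatments was possible, and whether several animals were pooled is not stated. No genetic change is stated for the mice, and neither culture is labelled as hypoxic.

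Cells sense oxygen through the transcription factor HIF-1. Its alpha subunit, encoded by Hif1a, is made continuously and, while oxygen is present, is hydroxylated on proline by the prolyl hydroxylases EGLN1 and EGLN3, recognised by the von Hippel-Lindau ubiquitin ligase and degraded. In low oxygen the protein persists, pairs with ARNT and binds short DNA elements near its target genes, among them Egln1 and Egln3 themselves, which forms a feedback loop. Neutrophils live largely on glycolysis, and HIF-1 is known to prolong their survival in low oxygen. Inflammatory signals through NF-kB are known to raise Hif1a RNA as well, and RNA levels do not report the stability of the protein.

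The DNA letters that HIF-1 is known to contact are ACGTG or GCGTG on either strand (CACGT or CACGC when read on the other). They were searched in the RefSeq window (GRCm38.p6) from 250 bases before to 50 bases after each annotated start. Promoters were listed for 9 of the 10 genes, with 2 for Vegfa, and Ndrg1 had none. A gene was counted where any of its promoters held a match. All 9 genes held at least 1 match, and 8 of them, all but Adm, held ACGTG or its complement. The Vegfa matches lay only in its second promoter, inside the gene body, and the promoter where the annotated gene begins held none. Among all 27025 genes with a promoter in the table, 46.7% held a match and 21.8% held ACGTG. Among the 7200 with RPKM of at least 0.25 in both libraries, the shares were 68.3% and 30.4%. At least 3 matches were found in 5 of the 9, against 19.6% of those 7200 genes. Such matches are a description of the letters, not binding sites. The GC content of the promoters ran from 54.7% in Egln3 to 86.0% in Egln1. The stretches below run from the first match to the last one before the start, with up to 10 bases on each side and matches in capitals. The first 5 are the genes called higher in the exosome library, and Bnip3 and Egln3, with the most and the fewest matches among the genes printed, were not called.
Hif1a (chr12:73907722-73907811, plus strand): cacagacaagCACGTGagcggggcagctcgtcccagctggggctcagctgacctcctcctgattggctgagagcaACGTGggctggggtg
Egln1 (chr8:124949308-124949390, minus strand): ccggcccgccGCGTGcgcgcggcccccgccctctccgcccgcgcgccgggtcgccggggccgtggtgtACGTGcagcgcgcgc
Ero1l (chr14:45318621-45318710, minus strand): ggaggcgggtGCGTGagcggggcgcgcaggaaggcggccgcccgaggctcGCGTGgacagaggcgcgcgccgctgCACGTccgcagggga
P4ha1 (chr10:59323123-59323294, plus strand): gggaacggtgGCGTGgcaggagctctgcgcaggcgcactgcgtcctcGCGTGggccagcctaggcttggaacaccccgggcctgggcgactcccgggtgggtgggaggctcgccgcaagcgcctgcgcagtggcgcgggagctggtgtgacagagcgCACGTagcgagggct
Ankrd37 (chr8:45999851-46000100, minus strand): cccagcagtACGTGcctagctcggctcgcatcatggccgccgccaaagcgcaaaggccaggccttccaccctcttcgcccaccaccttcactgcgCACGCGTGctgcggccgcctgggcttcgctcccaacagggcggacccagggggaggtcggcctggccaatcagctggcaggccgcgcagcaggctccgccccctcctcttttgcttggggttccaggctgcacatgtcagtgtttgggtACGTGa
Bnip3 (chr7:138909527-138909633, minus strand): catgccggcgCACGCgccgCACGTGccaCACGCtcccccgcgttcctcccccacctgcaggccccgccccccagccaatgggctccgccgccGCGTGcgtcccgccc
Egln3 (chr12:54204089-54204113, minus strand): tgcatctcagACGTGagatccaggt
Matches overlapped in Hif1a and Bnip3 as CACGTG, which is also the E-box read by other factors such as MYC, and in Ankrd37 as CACGCGTG. The Hif1a, Ero1l and Ankrd37 stretches lay wholly inside the GENCODE bodies of these genes, that of Hif1a with no exon base. The Hif1a stretch also lay within the antisense gene Gm15283, and that of Ankrd37 within Lrp2bp on the opposite strand, both outside exons of those genes. Annotated exons of the gene itself cover 17 of the 83 bases in Egln1, 8 of 90 in Ero1l and 17 of 250 in Ankrd37. Which start these neutrophils used was not measured.

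Both libraries were deep. From features under 0.01 RPKM, each taken to hold 1 read, 66.0 M mapped reads were estimated for PBS and 79.1 M for the exosome library. These are the commonest implied totals, shared by 224 of 918 such features with a known length in PBS and 270 of 1064 with exosomes. Values are RPKM, read numbers scaled to transcript length and library size, so levels can be compared between genes. Neutrophil markers were all above the filter in both libraries, most of them lower with exosomes (values are given with the markers of other cell types). In total 9698 features had an RPKM of at least 0.25 in both libraries and were kept. All 10 hypoxia response genes were among them. Ratios are exosome over PBS, and a gene was called higher from 2 upward and lower from 0.5 downward. Intervals are 95% exact intervals that cover the counting error of estimated reads only. They leave out any difference between cultures, animals or library preparations, and a narrow interval therefore does not show that a change would recur. In such bulk RNA, fewer cells of a type and less RNA per cell cannot be told apart.

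P4ha1, Ankrd37, Egln1, Ero1l and Hif1a were called higher in exosome-treated neutrophils, by ratios from 2.17 to 4.42. None of the 10 genes was called lower. Of all features kept, 31.5% were called higher and 5.62% lower, which is the background for the 5 of 10 called higher here. The other 5 genes had ratios from 0.69 for Ndrg1 to 1.83 for Adm. The median log2 ratio of the 10 genes was 0.99, against 0.53 over all features kept. Ratios were above 1 for 8 of the 10 genes, and for 7079 of the 9698 features kept. These 10 genes were chosen with earlier results of these data known, and they are not replicates of each other.

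**Figure D1:**
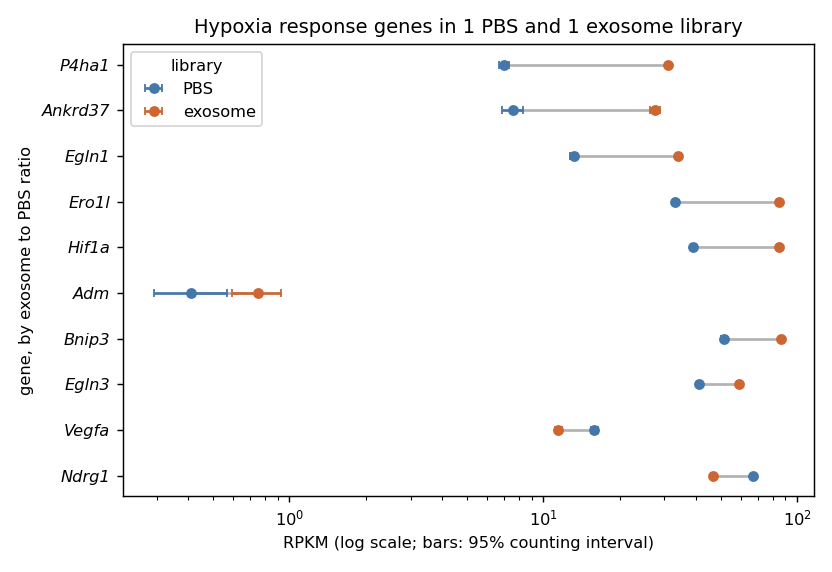
RPKM (log axis) of the 10 hypoxia response genes in the PBS (blue) and exosome (orange) libraries, 1 library each, ordered by ratio, with 95% counting intervals as bars. P4ha1, from 7.01 to 31.01 RPKM, shows the longest step, and Vegfa and Ndrg1 are the genes whose exosome point lies to the left of the PBS point.

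Among the genes of oxygen sensing, Hif1a and Egln1 were called higher and Egln3 was not. Hif1a (chromosome 12, 73901375 to 73947530, plus strand, GRCm38) had 38.96 RPKM in PBS and 84.52 RPKM with exosomes, a ratio of 2.17 (2.12 to 2.22). This margin over the limit of 2 was small. Exons of the antisense gene Gm15283 cover 5.60% of its exon bases, and reads of the pair cannot be told apart where counting ignores strand, which is not stated. Exons of Gm49321, a protein-coding gene on the same strand, cover 2.51% of the Hif1a exon bases, where strand cannot separate the reads. Egln1, whose enzyme is the main prolyl hydroxylase acting on HIF-1 alpha (chromosome 8, 124908587 to 124949324, minus strand), had 13.16 RPKM in PBS and 34.07 RPKM with exosomes, a ratio of 2.59 (2.49 to 2.70). Egln3, which encodes the hydroxylase most readily induced by HIF itself (chromosome 12, 54178981 to 54203860, minus strand), had 41.25 and 58.8 RPKM, a ratio of 1.43 (1.38 to 1.47). Egln3 RNA was the more abundant of the pair in both libraries. It stood at 3.13 times Egln1 in PBS and at 1.73 times Egln1 with exosomes. The order of Hif1a and Egln3 also differed between the libraries, Hif1a being at 0.944 times Egln3 in PBS and at 1.44 times Egln3 with exosomes.

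Of 16 further genes of the sensing machinery, 13 were kept. Of these, 3 (23.1%) were called higher and 0 lower, against 31.5% and 5.62% of all features. The list's median log2 ratio was 0.12, below that of all features. With level-dependent centring, or with at least 1 RPKM required in both libraries, 1 was called higher, against 13.3% and 25.6% of all features. ARNT, the partner of HIF-1 alpha, had RNA levels of 21.89 and 22.94 RPKM. The third hydroxylase gene, Egln2, had 22.32 and 26.46 RPKM. Hif1an, whose product hydroxylates HIF on asparagine, had 7.96 and 8.53 RPKM, and Vhl had 11.41 and 10.95 RPKM. These 4 genes therefore lay within 2-fold in both directions. Genes of the ubiquitin ligase that VHL directs were unequal. The scaffold gene Cul2 had 0.61 and 3.28 RPKM and was called higher (ratio 5.38), as was the RING subunit gene Rbx1 (10.07 and 22.12 RPKM, log2 ratio 1.14). The adaptor genes Elob and Eloc, listed as Tceb2 and Tceb1, had ratios of 1.53 and 1.68. Siah2, which encodes a ligase that degrades EGLN proteins, was called higher at 0.51 and 1.82 RPKM (ratio 3.57), while Siah1a had a ratio of 1.09. Cul2 and Siah2 lay in the level bin from 0.802 to 1.49 RPKM, where 54.1% of features were called higher. The coactivator genes Ep300 and Crebbp had ratios of 0.79 and 0.85, and Cited2, an inhibitor that competes for them, had 1.08. Epas1, which encodes HIF-2 alpha, was at 0.02 and 0.05 RPKM, Hif3a was at 0.00432 and 0.0036 RPKM, and Arnt2 was also below the filter, so Hif1a was the alpha subunit gene with RNA above the filter in these cells.

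Neither gene for a secreted factor was called. Vegfa, which encodes the endothelial growth factor VEGF-A (chromosome 17, 46016993 to 46032369, minus strand), had 15.88 RPKM in PBS and 11.47 RPKM with exosomes, a ratio of 0.72 (0.69 to 0.76). It was, with Ndrg1, on the lower side of a ratio of 1, against 5 genes called higher. Adm, which encodes the vasodilator peptide adrenomedullin (chromosome 7, 110627661 to 110629820, plus strand), was close to the filter at 0.41 and 0.75 RPKM, or about 38 and 82 estimated reads. Its ratio of 1.83 had a wide interval of 1.21 to 2.72, which includes 2, so whether it passed 2-fold was not detectable at this depth. In PBS Vegfa stood at 38.7 times Adm, and with exosomes at 15.3 times. Of 13 other ligand and receptor genes of these pathways, only 3 were kept, with 0 called higher and 1 lower. Over all features, 31.5% were called higher and 5.62% lower. Nrp1, a VEGF co-receptor gene, was called lower (2.5 and 0.69 RPKM, ratio 0.28), and Vegfb and Calcrl, the latter encoding the adrenomedullin receptor, had ratios of 1.06 and 0.85. Nrp2, the other co-receptor gene, had 0.18 and 1.23 RPKM and missed the filter in PBS alone, and the receptor gene Flt1 had 0.76 and 0.16 RPKM and missed it with exosomes alone. With the filter in either library and a pseudocount of 0.25, the list gave 1 higher and 2 lower. The shares of all features were then 28.4% and 5.20%. With level-dependent centring it gave 0 higher and 3 lower, against 13.3% and 13.4% of all features. Vegfb and Calcrl were among these 3 because their level bin had a median log2 ratio of 1.11, which was removed. The receptor genes Kdr and Flt4 were under 0.25 RPKM in both libraries, and Ramp2, which encodes the receptor's partner, was listed at 0 in both.

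Bnip3, which encodes a mitochondrial outer membrane protein that marks mitochondria for removal by autophagy (chromosome 7, 138890836 to 138909519, minus strand), had 51.4 RPKM in PBS and 86.39 RPKM with exosomes. The ratio of 1.68 (1.63 to 1.73) was below 2. Its close relative Bnip3l stood at 55.57 and 56.26 RPKM, a ratio of 1.01, so the pair was at nearly the same level in PBS (Bnip3 at 0.925 times Bnip3l) and apart with exosomes (1.54 times). Of 14 mitophagy genes, Bnip3l included, 12 were kept. Against 31.5% higher and 5.62% lower over all features, 1 (8.33%) was called higher and 1 lower, with a median log2 ratio of -0.03. The counts were 1 higher and 4 lower with median centring or the trimmed mean removed, and 0 higher and 3 lower with level-dependent centring. Over all features, 16.8% were then higher and 13.2% lower with median centring. These shares were 16.5% and 13.6% with the trimmed mean removed, and 13.3% and 13.4% with level-dependent centring. The mitochondrial receptor gene Fundc1 was the one called higher (ratio 2.99), and Optn, an autophagy receptor gene, the one called lower (ratio 0.48). The pseudogenes Gm16439, Gm6532 and Gm9419 matched Bnip3 over at least 200 bases at 95% identity or more, and the antisense gene Gm45507 covers 22.3% of its exon bases. The 3 pseudogenes were listed at 0 in both libraries. The longest match, 1654 bases at 96.6% identity, was to the lincRNA AC160336.1, which the tables do not list under that name and whose level is not known here. How reads that match several genes or strands were assigned is not stated, so the level of Bnip3 is uncertain to that extent.

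The enzyme genes of the endoplasmic reticulum gave the largest ratio of the group. P4ha1 encodes the catalytic subunit of collagen prolyl 4-hydroxylase, which, like the EGLN enzymes, uses oxygen and iron to hydroxylate proline (chromosome 10, 59323296 to 59373304, plus strand). It had 7.01 RPKM in PBS and 31.01 RPKM with exosomes, a ratio of 4.42 (4.21 to 4.65), and was the only gene of the 10 past 4-fold. Its partner subunit gene P4hb, whose product is also the disulfide isomerase PDI, was called higher too, at 33.02 and 135.2 RPKM (ratio 4.09). The other catalytic subunit genes were near or at 0, with P4ha2 at 0.00647 and 0.04 RPKM and P4ha3 listed at 0. Ero1l (Ero1a in RefSeq), which encodes the oxidase that recharges PDI for disulfide formation (chromosome 14, 45283087 to 45318771, minus strand), had 32.91 RPKM in PBS and 84.59 RPKM with exosomes, a ratio of 2.57 (2.51 to 2.63). Its paralog Ero1lb had 5.17 and 5.94 RPKM, a ratio of 1.15. Of 11 other genes of oxidative folding and collagen modification, 8 were kept, with a median log2 ratio of 0.65 against 0.53 over all features. Of the 8, 3 (37.5%) were called higher and 0 lower. That share of higher calls was near the 31.5% of all features. Besides P4hb, the genes called higher were the isomerase genes Pdia4 (ratio 2.06) and Pdia6 (10.11 and 20.22 RPKM), both at the limit. The list gave 1 higher with median centring, the trimmed mean removed, level-dependent centring, a pseudocount of 0.25 or 1, or S100a8 and S100a9 left out. Under these settings, 8.57% to 28.4% of all features were called higher. The chaperone gene Hspa5 had a ratio of 1.07.

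Ankrd37 and Ndrg1 differed in direction. Ankrd37, which encodes an ankyrin repeat protein and is a known HIF-1 target (chromosome 8, 45996902 to 46005707, minus strand), had 7.58 RPKM in PBS and 27.54 RPKM with exosomes, a ratio of 3.63 (3.29 to 4.03). Exons of the opposite-strand genes Lrp2bp and Ufsp2 cover 22.7% and 3.70% of its exon bases, with strand use not stated. Lrp2bp was at 0.02 and 0.07 RPKM, and Ufsp2 at 7.33 and 18.96 RPKM. Ndrg1, a stress-responsive gene that HIF-1 and other regulators induce (chromosome 15, 66929318 to 66969640, minus strand), had 67.21 RPKM in PBS and 46.69 RPKM with exosomes, a ratio of 0.69 (0.68 to 0.71). Antisense genes cover 6.35% (Gm17035) and 2.08% (Gm2895) of its exon bases. Ndrg1 was the highest of the 10 genes in PBS and the fifth with exosomes. Its relative Ndrg3, reported to be stabilised as a protein in low oxygen, had 3.97 and 7.75 RPKM (ratio 1.95, just under the limit), and Ndrg2 and Ndrg4 were below the filter.

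Ordered by level, the genes in PBS ran from Ndrg1 through Bnip3, Egln3, Hif1a, Ero1l, Vegfa, Egln1, Ankrd37 and P4ha1 to Adm. Ankrd37 and P4ha1 were the only neighbours there whose counting intervals overlapped. With exosomes the order was Bnip3, Ero1l, Hif1a, Egln3, Ndrg1, Egln1, P4ha1, Ankrd37, Vegfa and Adm. The first 3 could not be ordered, with overlapping intervals at 86.39, 84.59 and 84.52 RPKM, while all other neighbours were apart. Against all features kept, Hif1a stood above 86.6% of them in PBS and above 93.6% with exosomes. P4ha1 stood above 55.5% and 81.2%, and Vegfa above 72.7% and 58.0%. The summed RPKM of the 10 genes was 275.8 in PBS and 465.8 with exosomes, a ratio of 1.69.

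How much of a ratio is shared by the whole library depended on the level of expression. In 10 level bins of near-equal size, the median log2 ratio was 1.11 in the bin between 0.802 and 1.49 RPKM and 0.01 in the highest bin, above 54.5 RPKM. The genes called higher lay in the upper bins. Hif1a fell in the highest bin, where 10.8% of 970 features were called higher, and its log2 ratio of 1.12 exceeded that of 91.6% of them. Ero1l exceeded 93.6% of its bin, Egln1 91.5%, P4ha1 97.6% and Ankrd37 95.8%, in bins where 12.5% to 19.6% were called higher. Egln3 exceeded 69.5% of its bin and Bnip3 83.1%. Vegfa, at 10.4% of its bin, and Ndrg1, at 23.6%, were the genes below the median of their bins, so 8 of 10 were above it. When the median of each bin was removed, P4ha1, Ankrd37, Ero1l, Hif1a and Egln1 kept log2 ratios of 1.77, 1.49, 1.19, 1.11 and 1.06 and were all still past 2-fold, while the share of all features called higher went from 31.5% to 13.3%.

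**Figure D2:**
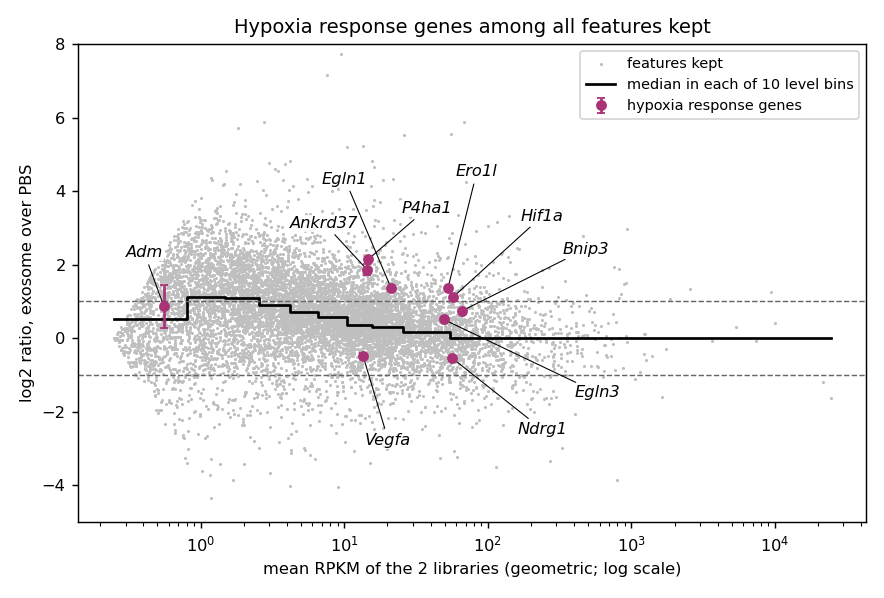
Log2 ratio of exosome over PBS against the geometric mean RPKM (log axis) for the 9698 features kept (grey), with the 10 hypoxia response genes (purple, bars are 95% counting intervals), the median of each of 10 level bins (black steps) and the 2-fold limits (dashed). The 5 genes called higher lie above the upper dashed line, at levels where the black line is at or below 0.37.

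The number of calls depended on the scaling. Rescaling to an equal sum in both libraries kept the same 5 genes called higher. With a single median of all log2 ratios (0.53) removed at every level, P4ha1 (1.62) and Ankrd37 (1.33) stayed past 2-fold, Hif1a, Egln1 and Ero1l came to 0.59, 0.85 and 0.84, and Ndrg1 was called lower at -1.05. Egln3 changed sign there, from 0.51 to -0.01. Removal of a trimmed mean of log2 ratios (0.54) did the same and also put Vegfa at -1.01, so that 2 genes were called higher and 2 lower. Over all features, 16.8% were then higher and 13.2% lower with median centring, and 16.5% and 13.6% with the trimmed mean removed. PBS neutrophils gave 21.2% of their summed RPKM to S100a8 and S100a9, the genes of the calprotectin subunits, against 8.13% with exosomes. With these left out and the rest rescaled, Hif1a was at 0.94, under the limit, and the other 4 stayed called. Over all features, 25.8% were called higher there. Under the 6 scalings compared, P4ha1 and Ankrd37 were called higher each time, and Hif1a, Egln1, Ero1l, Adm and Bnip3 kept a ratio above 1. Vegfa and Ndrg1 kept a ratio below 1 under the same 6.

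**Figure D3:**
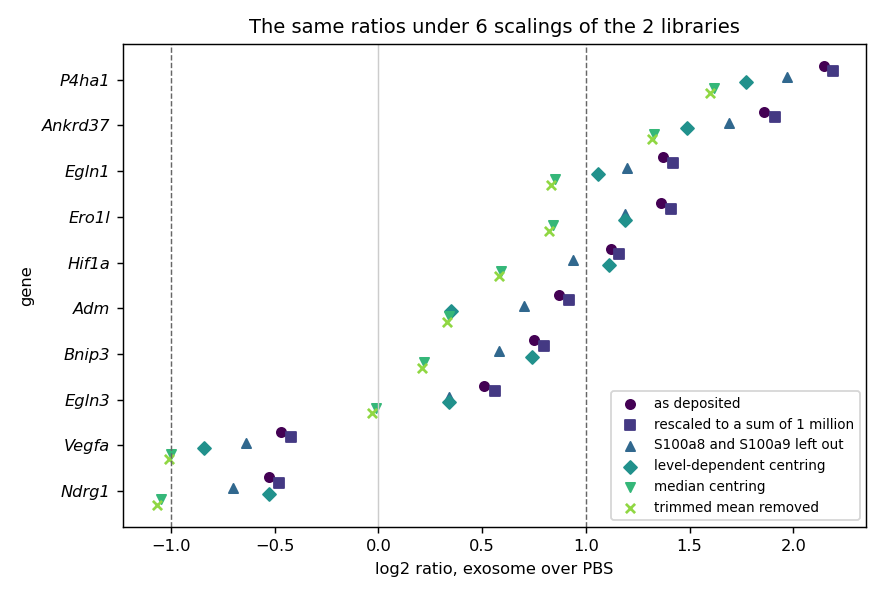
Log2 ratio of exosome over PBS for each of the 10 genes under 6 scalings of the 2 libraries (symbols, 1 value each), with dashed lines at 2-fold. P4ha1 and Ankrd37 stay right of the upper line under all 6, Egln3 crosses 0, and Vegfa and Ndrg1 reach or pass the lower line only with median centring or the trimmed mean removed.

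Other targets of HIF-1 gave mixed calls. Of 20 genes of glycolysis and glucose or lactate transport that HIF-1 is known to induce, all were kept, 7 (35.0%) were called higher and 1 lower, with a median log2 ratio of 0.63. That share of higher calls was near the 31.5% of all features, of which 5.62% were called lower. The largest ratios were those of Pdk1 (2.09 and 9.75 RPKM, ratio 4.67), whose kinase keeps pyruvate out of mitochondria, Tpi1 (ratio 4.45), Aldoc (ratio 3.93) and Pfkp (ratio 3.54). Slc2a3, which encodes the glucose transporter GLUT3, was called lower at 275.42 and 69.56 RPKM (ratio 0.25), whereas Slc2a1, for GLUT1, had 41.49 and 74.36 RPKM (ratio 1.79). Several of these enzymes, Gapdh above all, have many processed pseudogenes, and their levels are uncertain for the same reason as that of Bnip3. With median centring or the trimmed mean removed the list gave 5 higher and 3 lower. Over all features, 16.8% were then higher and 13.2% lower with median centring, and 16.5% and 13.6% with the trimmed mean removed.

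Of 41 further HIF targets, 23 were kept, with a median log2 ratio of 0.12. Of these, 4 (17.4%) were called higher and 5 lower, against 31.5% and 5.62% of all features. Called higher were Hilpda (1.1 and 7.72 RPKM, ratio 7.02), a lipid droplet gene, the cytokine gene Mif (ratio 6.63), the transferrin receptor gene Tfrc (ratio 4.96) and, at 0.37 and 0.78 RPKM, Bhlhe41. Nt5e (50.8 and 8.12 RPKM, ratio 0.16), an ectonucleotidase gene, was called lower, as were Trf (ratio 0.23), Cxcr4 (ratio 0.29), Ccng2 (ratio 0.34) and Zfp395 (ratio 0.35). With the filter in either library and a pseudocount of 0.25, the list gave 5 higher and 6 lower. Over all features, 28.4% were then higher and 5.20% lower. Car9, a standard marker of hypoxic tumour cells, was at 0.02 and 0.11 RPKM, and Epo and Ndufa4l2 were listed at 0 in both libraries.

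**Figure D4:**
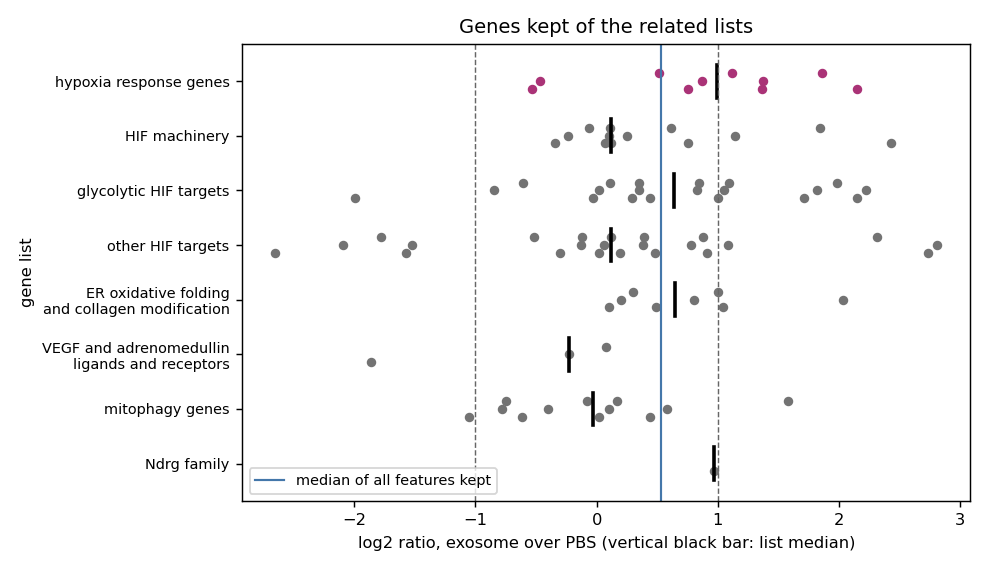
Log2 ratio of exosome over PBS for each gene kept of the hypoxia response genes (purple) and of 7 related lists (grey), with list medians (black bars), the median of all features kept (0.53, blue line) and the 2-fold limits (dashed). The hypoxia response genes have a median of 0.99, and the other HIF targets spread from -2.65 to 2.81 around a median of 0.12.

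Markers of cell types differed between the libraries as well. Of 12 neutrophil markers, all were kept, and 0 were called higher and 10 lower with exosomes. Over all features, 31.5% were called higher and 5.62% lower. The summed level of the 12 was 84902 RPKM in PBS and 30855 RPKM with exosomes. Ly6g, the sorting marker, had 286.96 and 56.19 RPKM, and Itgam, for CD11b, had 312.74 and 393.4 RPKM. Of 14 monocyte and macrophage markers, 8 were kept, 4 were called higher and 1 lower, with summed levels of 466.8 and 708.8 RPKM. Csf1r had 58.1 and 152.64 RPKM and Adgre1, listed as Emr1, had 20.91 and 151.51 RPKM. Close to the filter in PBS, C1qc (0.27 and 3.79 RPKM, ratio 14.04) and C1qb (0.3 and 2.3 RPKM, ratio 7.67) were also called higher. C1qa (0.18 and 1.42 RPKM), Cx3cr1 (0.1 and 1.39 RPKM), Mertk (0.04 and 0.48 RPKM) and Mrc1 (0.04 and 0.38 RPKM) missed the filter in PBS. Ly6c2, at 184.41 and 37.12 RPKM, was the only monocyte and macrophage marker at a lower level with exosomes. Summed levels of T and B cell markers were 127.0 and 51.69 RPKM. Dendritic cell markers summed to 9.917 and 4.610 RPKM, those of eosinophils, mast cells and basophils to 12.13 and 6.590 RPKM, erythroid markers to 1.550 and 0.1152 RPKM, and myeloid progenitor markers to 10.17 and 16.05 RPKM. Epithelial markers summed to 0.5900 and 0.2053 RPKM, with Krt8 listed at 0. The part of these shifts in the ratios of the hypoxia response genes was not tested.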

How the data were processed

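Neutrophil mRNA libraries (TruSeq, HiSeq 2500; 1 per group) were analysed. The authors trimmed reads by Phred score and used CLC Genomics Workbench. Their deposited values are RPKM per feature, rounded to 0.01 from 0.01 upward. The build is mm10 by the submitters' processing notes. The annotation, strand use, handling of multiply matching reads and scaling between libraries are not given in the sources used here. Digit-group separators were removed from the RPKM values, and 25 features bearing a date number in place of a name were counted and never named.

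RPKM is not a read count, so no count model was fitted, and with 1 library per group no test was made. Mapped reads were estimated as the commonest total implied by features under 0.01 RPKM, taken as 1 read over the longest GENCODE M21 transcript (GRCm38). All 10 genes had such a length. Estimated reads served only for intervals (exact Clopper-Pearson for ratios, exact Poisson for levels, 95%). Ratios used no pseudocount. Pathway genes named were the oxygen sensing list where kept, and of other lists up to 4 per direction past 2-fold with the largest change and at least 1 RPKM in a library. Others were named after their values were seen, for their role or, as with Zfp395 and Bhlhe41, as further called genes of a list. The genes and lists were chosen with earlier results of these data known. Alternatives were other scalings, filters, pseudocounts and a 4-fold limit. Promoters came from RefSeq GRCm38.p6, and similar transcripts were sought with minimap2 2.31-r1302. Calculations used Python 3.11.15, pandas 2.3.3 and scipy 1.17.1, and the scripts were tested on simulated reads.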

Additional observations from a re-analysis of the deposited data

How the results depend on the processing

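The number of hypoxia response genes called higher was 5, and it was also 5 when the values were rescaled to an equal sum in both libraries, centred by level, filtered at 1 RPKM in both libraries (Adm then drops out), taken with no filter or an either-library filter and a pseudocount of 0.25, or given a pseudocount of 1. It was 4 with S100a8 and S100a9 left out, 2 with median centring and 2 with the trimmed mean removed, and 1 when a ratio of at least 4 was required. The number called lower went from 0 to 1 with median centring and to 2 with the trimmed mean removed. Over all features, 25.8% were higher with S100a8 and S100a9 left out and 8.52% at a ratio of at least 4. With median centring 16.8% were higher and 13.2% lower, and with the trimmed mean removed 16.5% and 13.6%. The median log2 ratio of the 10 genes, 0.99, became 0.47 with median centring, 0.45 with the trimmed mean removed, 0.90 with level-dependent centring, 1.12 with the filter at 1 RPKM, 0.93 with either pseudocount of 0.25, 0.92 with a pseudocount of 1 and 0.82 with S100a8 and S100a9 left out. Of all features, 3056 were higher and 545 lower as deposited, 1634 and 1282 with median centring, 1596 and 1321 with the trimmed mean removed, and 1290 and 1304 with level-dependent centring. Higher calls thus made up 84.9% of calls as deposited and 56.0%, 54.7% and 49.7% under these, and 77.7% with S100a8 and S100a9 left out. Taking 0.8 times the estimated depth widened the counting intervals and moved no ratio. No called gene changed sign under any of these settings. No paired analysis was possible because each group holds 1 library. At the limit of 2, the counting interval left the side undecided for Adm alone among the 10 genes. Scaling, which 2 libraries cannot settle, limits the calls for Hif1a, Egln1 and Ero1l, and the lack of a lower call for Ndrg1 and Vegfa.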
